A study of Mus musculus with 6 samples.

Results

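Latrophilins are adhesion G protein-coupled receptors, and the FLRT and teneurin proteins are their ligands on neighbouring cells. The 10 mouse genes of these families, which are Adgrl1, Adgrl2 and Adgrl3 for the receptors, Flrt1, Flrt2 and Flrt3 for the FLRTs and Tenm1 to Tenm4 for the teneurins, were read on arrays of pancreatic islets with and without a pulse of Sox17. They are 10 of the 19937 genes that have a probe set annotated with a single gene symbol, and each gene is represented by the brightest such probe set over the 6 arrays. Adgrl3 was chosen by its large and even increase in these same arrays, and its relatives and ligands were then set beside it. The values of Adgrl3 are therefore a description without a test. The other 9 genes entered by family, though the members were chosen with earlier results of these data known. All 10 genes had at least 1 such probe set, and all 10 stayed in the fit, since no filter on dim signals was applied.

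A latrophilin has a large extracellular part that binds its ligands and a membrane-spanning part that couples to G proteins. FLRTs are membrane proteins with leucine-rich repeats that bind latrophilins and also the Unc5 receptors of netrins. Teneurins are very large membrane proteins that bind latrophilins across synapses, and the families are best known from axon guidance and synapse formation in the brain. The founding latrophilin was identified as a receptor of the spider toxin α-latrotoxin, which also releases insulin from β cells.

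Mice of the 3 Sox17-GOF samples had both the Ins2-rtTA and the tetO-Sox17 allele, while the 3 control samples are labelled Ins2-rtTA alone. All mice were 16 weeks old, labelled C57BL/6 after backcrossing from an outbred stock, and received doxycycline for 24 hours. By these labels both groups share the transactivator and the drug. For a protein experiment of the same study the controls are instead given as tetO-Sox17 mice, and the labels of the arrays are followed here. The insulin promoter limits rtTA to insulin-producing cells, in which doxycycline then turns on Sox17. If the labelled controls lack tetO-Sox17, carrying that allele and inducing it cannot be told apart, and if they carried tetO-Sox17 without rtTA, the same would hold of rtTA. The comparison asks which islet genes differ a day after induction.

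Whole-islet RNA was hybridized to mouse gene arrays of Affymetrix, with 1 array per sample. The deposited values are log2 expression values, on which a difference of 1 is a doubling. Sox17 itself was 6.35, 6.22 and 6.36 in Sox17-GOF islets, against 5.50, 5.72 and 5.71 in control islets, a difference of 0.67 (standard error 0.09, limma adjusted p = 0.00876). For Sox17 a two-sided exact permutation test returned p = 0.10, its lowest possible value with 3 samples in each group. Array medians ran from 6.31 to 6.41 in Sox17-GOF and from 6.35 to 6.38 in control islets. On the second principal component, with 19.8% of the variance, Sox17-GOF replicate 3 lay at -26.3 and the other Sox17-GOF arrays at 17.4 and 13.1. Among 10 lists of marker genes, 0 of 53 measured genes were higher and 7 were lower by limma's adjusted threshold, where 2.77% of all genes were higher and 2.44% lower, and 7 were higher and 11 lower at an unadjusted p under 0.05. Outside the β cell list, those called lower were Th (-0.94, neuron list), Kdr (-0.68, endothelial list) and Cd79a (-0.54, immune list). The 6 measured neuron markers ran from -0.94 to 0.76 (Nefl), with 4 above and 2 below control on average. β cell markers were all below control on average (4 of 8 lower). Their mean log2 level was 10.37 to 10.51 in Sox17-GOF and 10.87 to 10.90 in control islets. The shift was uneven. Differences were -1.03 for Ucn3, -1.01 for Slc2a2, -0.74 for G6pc2 and -0.47 for Pdx1, the 4 that were called. They were -0.17 for Nkx6-1, -0.09 for Iapp and -0.01 for both Ins2 and Mafa. Ins2 and Iapp were very bright, with means of 13.08 and 13.46 over the 6 arrays, and at such levels a change can be understated. Stellate and fibroblast markers had 0 of 7 genes past the threshold, but all 7 were above control on average, 3 of them at an unadjusted limma p under 0.05. Their mean level was 7.35 to 7.75 in Sox17-GOF and 6.96 to 7.41 in control islets (7.30 to 7.51 and 7.07 to 7.27 without Dcn, the most variable of them). In whole islets, fewer cells of a type and less RNA per cell cannot be told apart, and the part of such shifts in the results that follow was not tested except where a value is given beside a gene.

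Adgrl3 was the member with the widest separation between the groups. The log2 level of Adgrl3 was 10.10, 9.96 and 10.14 in Sox17-GOF islets, against 8.45, 8.49 and 8.43 in control islets. Every Sox17-GOF array thus stood above every control array, with a gap of 1.47 between the nearest arrays. Adgrl3 averaged 10.07 ± 0.10 in Sox17-GOF islets and 8.46 ± 0.03 in control islets (SD, n = 3 each), which is a difference of 1.61 (standard error 0.08) or 3.06-fold. Of the 19937 genes, 67 had a larger increase than Adgrl3 and 34 of those that were higher had a wider gap between the groups. With any 1 array left out, the difference of Adgrl3 stayed between 1.58 and 1.67. Because Adgrl3 was chosen for its large and even increase, these ranks and this range follow from the choice and lend it no support. A single probe set reads Adgrl3, so no second one could be set beside it.

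Adgrl2, the receptor next in the order of differences, was higher in Sox17-GOF islets on its brightest probe set. There it measured 8.28, 8.21 and 8.39 in Sox17-GOF islets, against 7.94, 7.95 and 7.80 in control islets. The groups did not overlap, and the difference was 0.40 (95% interval 0.20 to 0.59, 1.32-fold, limma adjusted p = 0.0414). This call ended with any 1 of the 6 arrays left out (adjusted p of 0.074 to 0.127, the highest without control replicate 3).

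The 8 probe sets of Adgrl2 did not move together. Their differences ran from -0.19 to 0.60 with a median of 0.19, 5 were above 0 and 3 below, and 1 of the 8 passed the adjusted threshold, where 4.93% of all probe sets with a symbol did. The largest difference of Adgrl2, 0.60, came from its second dimmest probe set, which measured 5.42, 6.36 and 5.29 in Sox17-GOF islets, against 5.30, 4.92 and 5.06 in control islets. Here Sox17-GOF replicate 2 stood far above the other Sox17-GOF arrays, and the groups overlapped. The mean of all 8 probe sets differed by 0.15 (adjusted p = 0.407). All 8 are annotated with a RefSeq mRNA of Adgrl2, and which exons each one reads is not given in the sources used here.

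Adgrl1, the first latrophilin to be described, leaned the other way. Its level was 8.15, 7.87 and 7.92 in Sox17-GOF islets, against 8.32, 8.30 and 8.23 in control islets. All Sox17-GOF arrays lay below all control arrays, by 0.08 at the nearest. The difference of Adgrl1 was -0.30 (95% interval -0.52 to -0.08, unadjusted p = 0.013), which did not pass after adjustment over all probe sets (limma adjusted p = 0.127). The 3 receptors thus held values of both signs, with Adgrl3 and the brightest probe set of Adgrl2 above control and Adgrl1 below it, and neither relative came near the size of the difference in Adgrl3.

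**Figure D1:**
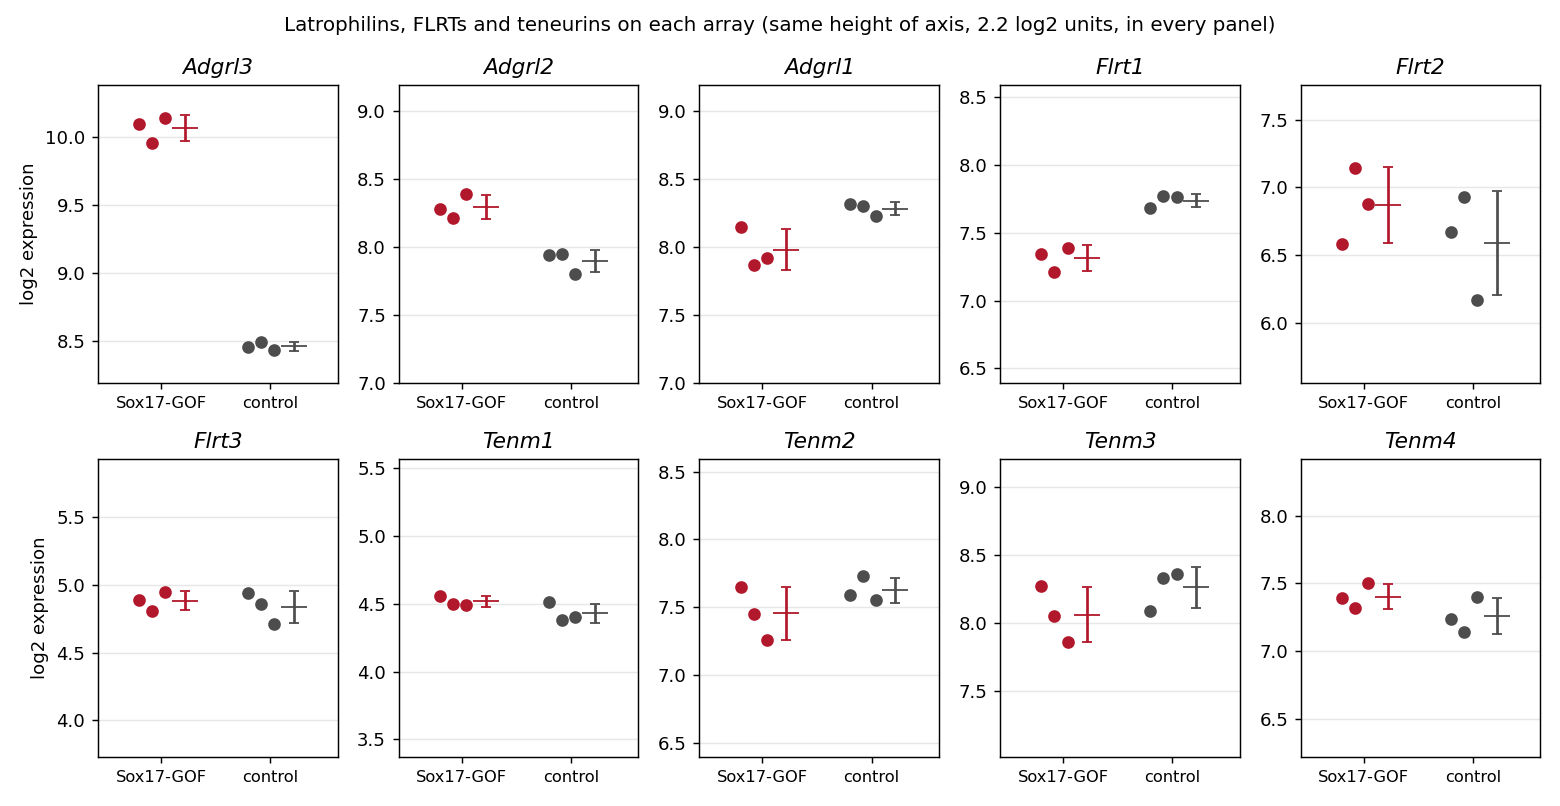
Log2 expression of the 10 genes on each array (points, Sox17-GOF in red and control in grey, 3 arrays each) with the group mean and SD (line and bar) beside them, from the brightest probe set of each gene. Every panel spans the same height, and the groups stand apart in Adgrl3, Adgrl2, Adgrl1 and Flrt1 and overlap in the other 6 genes.

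Among the ligands, Flrt1 was lower in Sox17-GOF islets. FLRT1 is a leucine-rich repeat protein that also takes part in fibroblast growth factor receptor signalling. The log2 level of Flrt1 was 7.34, 7.21 and 7.39 in Sox17-GOF islets, against 7.68, 7.77 and 7.76 in control islets. The arrays of the groups were separated by 0.28, and within each group they spanned less than that. Flrt1 averaged 7.31 ± 0.09 in Sox17-GOF and 7.74 ± 0.05 in control islets (SD, n = 3 each), a difference of -0.42 (95% interval -0.61 to -0.24, limma adjusted p = 0.0279), so control islets were 1.34-fold higher. The call of Flrt1 held without Sox17-GOF replicate 3 (adjusted p = 0.0349) and ended without either of the other Sox17-GOF arrays or any 1 control array (0.0581 to 0.115).

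Flrt2, a guidance ligand of Unc5 receptors that is also expressed in mesenchyme, was the most uneven member within groups. It measured 6.58, 7.14 and 6.88 in Sox17-GOF islets, against 6.67, 6.93 and 6.17 in control islets. The ranges overlapped, and the difference of Flrt2 was 0.28 (95% interval -0.21 to 0.77, limma adjusted p = 0.552). Its SD within groups, 0.34, was larger than that of 96.6% of all genes. The difference of Flrt2 was 0.07 without control replicate 3, its lowest array, and 0.45 without control replicate 2, the highest array of that group. Stellate and fibroblast markers had a mean level of 7.35 in Sox17-GOF replicate 1, the lowest array of its group for Flrt2, and 7.73 and 7.75 in the others, against 6.96 in control replicate 3 and 7.41 in both other control arrays. In each group the array lowest for Flrt2 was thus also the lowest for these markers. Much of the spread among control arrays came from Dcn, which was 6.31 in control replicate 3 and 8.24 and 9.09 in the others. Without Dcn, a choice made after seeing the data, the mean of the other 6 markers was 7.30, 7.51 and 7.46 in Sox17-GOF islets, against 7.27, 7.13 and 7.07 in control islets. Their part in the values of Flrt2 was not tested.

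Flrt3, the FLRT most often studied as a partner of latrophilin 3, was dim and close to even. Its level was 4.89, 4.81 and 4.95 in Sox17-GOF islets, against 4.94, 4.86 and 4.71 in control islets, not far above 4.63, the 20th percentile of all values. The difference of Flrt3 was 0.05 (95% interval -0.16 to 0.25, limma adjusted p = 0.845), and it was -0.02 without control replicate 3 and 0.10 without control replicate 1. The interval leaves room for changes up to these bounds, and near the background of the arrays a change can be understated.

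On their brightest probe sets the 4 teneurins had overlapping groups, and none passed the threshold. Tenm1, on the X chromosome, was dim, with 4.56, 4.50 and 4.49 in Sox17-GOF islets, against 4.51, 4.38 and 4.40 in control islets. The mean of 4.47 is under that percentile too, and the difference of 0.09 (95% interval -0.08 to 0.26, limma adjusted p = 0.589) describes a signal near background.

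Tenm2, whose protein is a ligand of latrophilin 1, measured 7.65, 7.45 and 7.26 in Sox17-GOF islets, against 7.59, 7.73 and 7.55 in control islets. Tenm3, known for matching partner neurons in the hippocampus and the visual system, measured 8.27, 8.05 and 7.86 in Sox17-GOF islets, against 8.09, 8.33 and 8.36 in control islets. In both genes Sox17-GOF replicate 1 lay among the control arrays and replicate 3 was the lowest array of all. The differences were -0.17 for Tenm2 (95% interval -0.43 to 0.09, limma adjusted p = 0.48) and -0.20 for Tenm3 (95% interval -0.49 to 0.09, limma adjusted p = 0.454). Sox17-GOF replicate 3 is the array that stood apart on the second principal component, and without it the differences were -0.07 for Tenm2 and -0.10 for Tenm3. Without Sox17-GOF replicate 1 they were -0.27 for Tenm2 and -0.31 for Tenm3. Duct markers had a mean level of 8.95 in Sox17-GOF replicate 3, against 8.08 and 8.30 in the others of its group and 8.01 to 8.11 in control islets. Of the 3 measured duct markers, Krt19 (9.13) and Sox9 (7.63) were highest on that array and Krt7 (10.08) was lowest there. Their part in the values of Tenm2 and Tenm3 was not tested.

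Tenm4, which acts in the maturation of oligodendrocytes, is read by a pair of probe sets that differ in brightness. The brighter one gave 7.39, 7.32 and 7.50 in Sox17-GOF islets, against 7.24, 7.14 and 7.40 in control islets, a difference of 0.14 (95% interval -0.08 to 0.36, limma adjusted p = 0.487). The dimmer one gave 6.75, 6.91 and 6.79 in Sox17-GOF islets, against 6.64, 6.30 and 6.34 in control islets, so that here the groups did not overlap. Its difference of 0.39 had an unadjusted p = 0.00807 and a limma adjusted p = 0.0966. The mean of both probe sets of Tenm4 differed by 0.27 (adjusted p = 0.119), and the brighter one by 0.08 without control replicate 2 and by 0.21 without control replicate 3. Of the pair, the annotation gives a RefSeq mRNA of Tenm4 for the dimmer probe set and not for the brighter one.

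**Figure D2:**
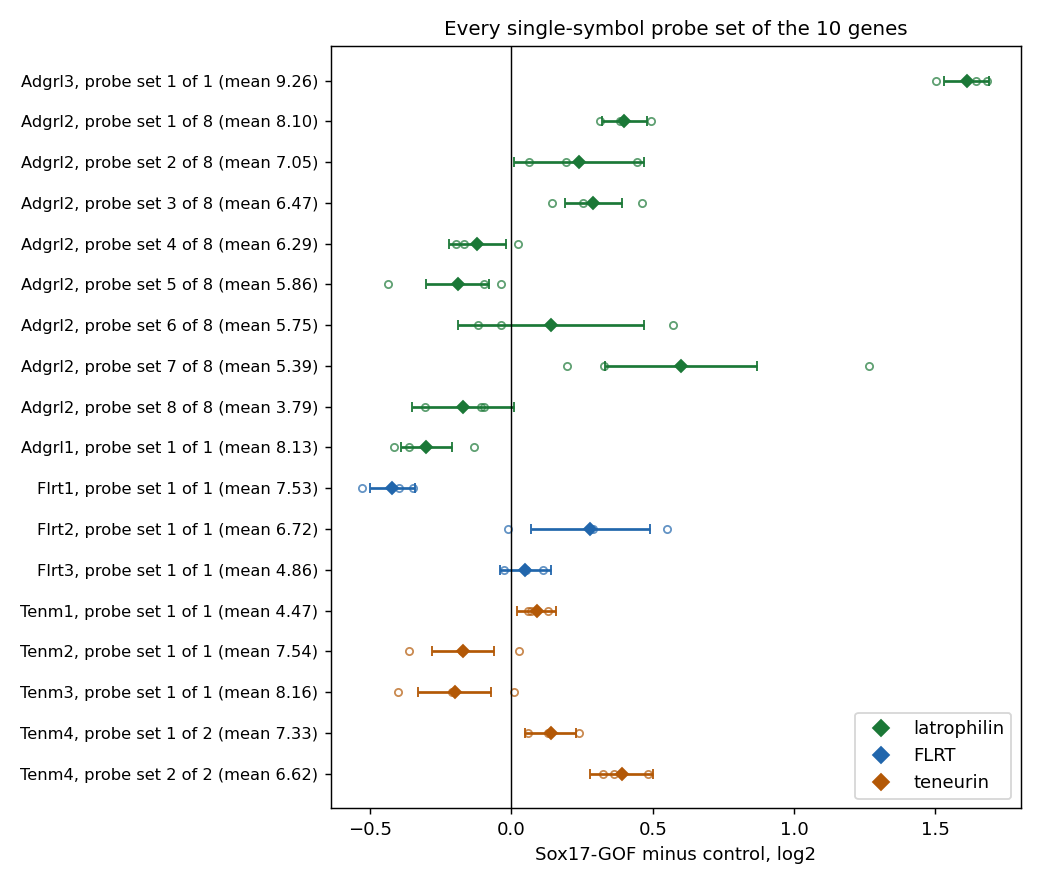
Difference in log2 expression, Sox17-GOF minus control, for all 18 single-symbol probe sets of the 10 genes. Diamonds are the differences of the means with their standard errors, open circles are each Sox17-GOF array minus the control mean, and the mean over the 6 arrays stands beside each name. Adgrl3 stands alone at 1.61, while the 8 probe sets of Adgrl2 lie on both sides of 0.

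Counted over the 9 genes other than Adgrl3, the adjusted threshold was passed by 1 gene that was higher and by 1 that was lower, and not by the remaining 7. Of all 19937 genes, 2.77% were higher and 2.44% lower by the same rule, and 5.21% were called in either direction. The groups did not overlap in 3 of the 9, of which 1 was higher and 2 were lower, where 25.5% of all genes had no overlap (11.3% higher and 14.2% lower). The median difference of the 9 genes was 0.05, beside -0.01 over all genes. With so few members these counts set nothing apart from the rest of the array.

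**Figure D3:**
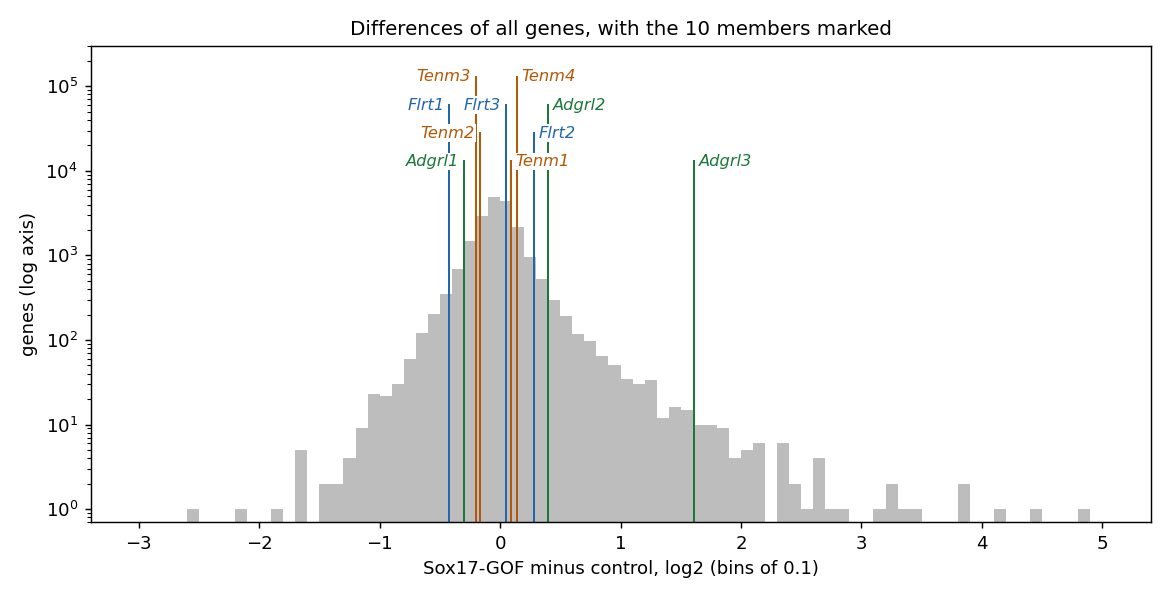
Histogram of the difference in log2 expression, Sox17-GOF minus control, of all 19937 genes in bins of 0.1, with the number of genes on a log axis. The vertical lines mark the 10 members, coloured by family (latrophilins green, FLRTs blue, teneurins orange), and 9 of them lie between -0.42 and 0.40 while Adgrl3 lies at 1.61.

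The promoters of the members were searched for the core motif bound by SOX proteins, because SOX17 is the factor that was induced. RefSeq windows of 300 bases, from 250 before to 50 after an annotated transcript start on GRCm38.p6, were at hand for 9 of the 10 genes, and Flrt1 had none. The motif ACAAT was found on either strand in 4 of the 12 windows of these 9 genes, which belong to Adgrl3, Tenm1, Tenm2 and Tenm3, and in 31% of all 32851 such windows. The longer AACAAT, which contains it, was found in 1 of the 12, that of Tenm3, and in 10.7% of all windows. The windows shown are the one of Adgrl3 with a match (the third of 3, chr5:81021343-81021642, plus strand), the one of Tenm3 (chr8:48674641-48674940, minus strand) and, for comparison with no match, the one of Adgrl2 (chr3:148954586-148954885, minus strand). Each is written 5′ to 3′ along its gene, and capitals mark ACAAT or its reverse complement ATTGT.
Adgrl3: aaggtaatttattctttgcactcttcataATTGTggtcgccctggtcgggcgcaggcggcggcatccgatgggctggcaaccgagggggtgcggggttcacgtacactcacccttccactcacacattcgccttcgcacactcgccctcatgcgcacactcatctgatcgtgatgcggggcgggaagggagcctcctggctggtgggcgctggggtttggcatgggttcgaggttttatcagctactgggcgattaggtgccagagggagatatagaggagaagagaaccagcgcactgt
Tenm3: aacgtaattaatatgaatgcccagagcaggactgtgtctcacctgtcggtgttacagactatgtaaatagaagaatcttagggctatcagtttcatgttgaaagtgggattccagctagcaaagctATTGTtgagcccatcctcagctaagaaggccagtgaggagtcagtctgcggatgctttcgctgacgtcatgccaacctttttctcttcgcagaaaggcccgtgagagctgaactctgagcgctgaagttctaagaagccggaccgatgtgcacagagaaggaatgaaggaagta
Adgrl2: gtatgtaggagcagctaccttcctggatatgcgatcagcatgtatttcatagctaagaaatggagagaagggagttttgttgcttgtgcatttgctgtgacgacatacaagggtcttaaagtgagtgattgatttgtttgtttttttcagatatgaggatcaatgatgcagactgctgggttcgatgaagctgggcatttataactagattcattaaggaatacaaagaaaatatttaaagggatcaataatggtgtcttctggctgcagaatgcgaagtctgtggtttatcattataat
In Adgrl3 the match begins 221 bases before the start, and its other windows, which lie upstream of this one and overlap each other, hold no match. In Tenm3 it begins 124 bases before the start. The windows of Adgrl3 had a GC content of 75.3%, 64.7% and 58.7%, where the median of all windows was 52.7%. That of Adgrl1, which leaned the other way in expression, had 70.0%, and that of Adgrl2 had 38.0%. A match of these letters describes the sequence and shows no binding.

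The genes closest to Adgrl3 in their pattern over the 6 arrays were Calb1, Fabp5, Nln, Stmn1 and Tc2n. They were the nearest of 16358 genes by Euclidean distance between log2 values centred on each gene's mean, at distances of 0.14 (Calb1), 0.22 (Fabp5), 0.28 (Nln), 0.31 (Stmn1) and 0.32 (Tc2n). Calb1 encodes the calcium-binding protein calbindin, Fabp5 a fatty acid-binding protein, Nln the peptidase neurolysin and Stmn1 the microtubule regulator stathmin. Calb1 measured 11.19, 11.04 and 11.37 in Sox17-GOF islets, against 9.62, 9.59 and 9.52 in control islets, a 3.08-fold difference beside the 3.06-fold of Adgrl3. In both genes Sox17-GOF replicate 3 was the highest array and replicate 2 the lowest of its group. This measure finds genes with the same step between the groups, as does the choice of Adgrl3, and is given without a test.

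Apart from Adgrl3, the member with the largest difference was Flrt1, and its nearest genes were Zfp787, Camk2n1, Cped1, Enho and Zscan26. Their distances to Flrt1 were 0.11 to 0.12, and their differences ran from -0.36 to -0.47, beside -0.42 for Flrt1. Camk2n1 encodes an inhibitor of the calcium/calmodulin-dependent kinase CaMKII and Enho the secreted peptide adropin.

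**Figure D4:**
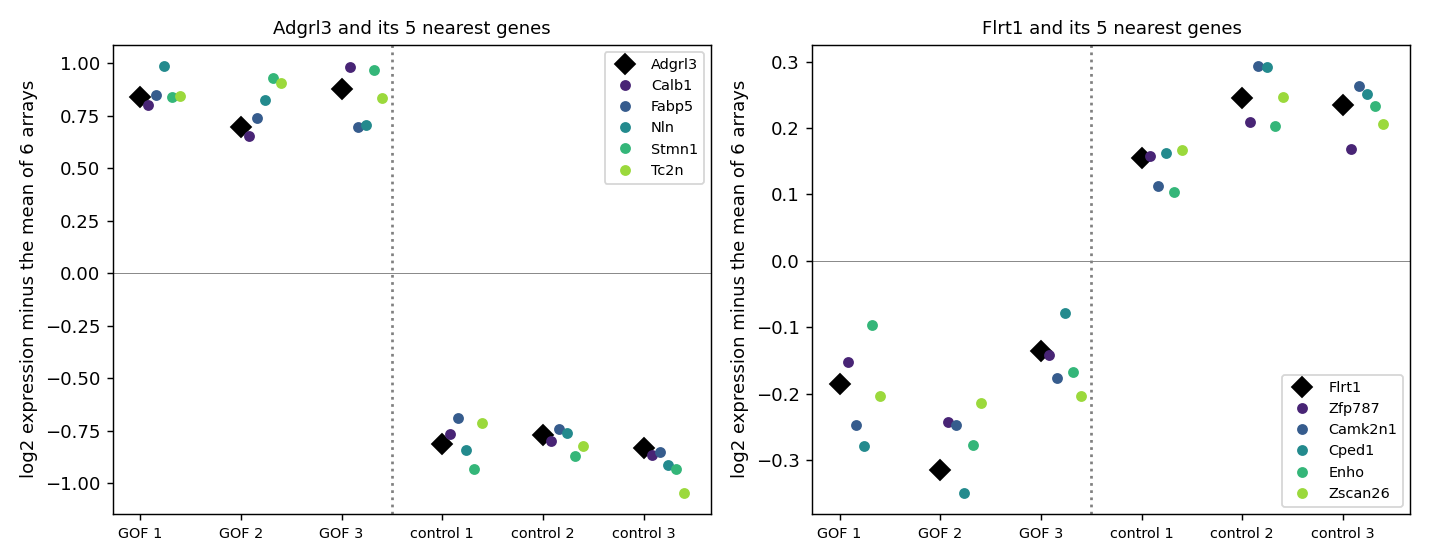
Log2 expression minus each gene's mean over the 6 arrays, for Adgrl3 (left) and Flrt1 (right) as black diamonds with their 5 nearest genes as coloured circles, on each Sox17-GOF and control array. The vertical scales of the panels differ, and in both the genes shown share a step between the Sox17-GOF and the control arrays.

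Partners and relatives outside the 10 genes were taken from 5 lists, of which 80 of 86 genes were measured. The lists were chosen with earlier results of these data known, so their counts and p-values describe these arrays and are no independent test. In all, the threshold was passed by 8 of the 80, of which 7 were higher and Adgrg1 alone was lower, where 2.77% of all genes were higher and 2.44% lower. The median difference of the 80 genes was 0.04, beside -0.01 over all genes.

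Of the 9 genes listed as other partners of FLRTs, 2 were higher and 7 did not pass (median difference 0.05). The list also holds the netrin gene Ntn1 and the netrin receptor Dcc, and a place on it does not mean that a gene binds an FLRT. Robo1, the receptor of the repellent Slit proteins, measured 9.48, 9.01 and 8.93 in Sox17-GOF islets, against 8.44, 8.38 and 8.19 in control islets, a 1.74-fold difference (limma adjusted p = 0.0283). Dcc, a netrin receptor, measured 6.12, 6.21 and 6.32 in Sox17-GOF islets, against 5.63, 5.57 and 5.49 in control islets, a 1.57-fold difference (limma adjusted p = 0.00658). Both genes had every Sox17-GOF array above every control array. The call of Dcc held with any 1 array left out, and that of Robo1 ended without Sox17-GOF replicate 2 or any 1 control array (adjusted p up to 0.0995). The 4 Unc5 receptors and Fgfr1 did not pass the threshold. Of the 7 measured other partners and scaffolds of latrophilins and teneurins, among them Nrxn2, Nrxn3, Dag1 and the Shank genes, none passed by limma, none had an unadjusted p under 0.05, and the differences lay between -0.02 and 0.12.

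Among 25 measured other adhesion G protein-coupled receptors, the threshold was passed by 2 that were higher and 1 that was lower (median difference 0.01). Adgrg1, a receptor abundant in islets, measured 7.95, 7.97 and 7.69 in Sox17-GOF islets, against 8.48, 8.54 and 8.69 in control islets, so control islets were 1.62-fold higher (limma adjusted p = 0.0117, and 0.055 without control replicate 2). Adgrg6, which Schwann cells need to form myelin, was 1.53-fold higher in Sox17-GOF islets (limma adjusted p = 0.0294). Adgrg2, known from the epididymis, measured 5.27, 5.23 and 4.79 in Sox17-GOF islets, against 4.20, 4.32 and 4.56 in control islets (limma adjusted p = 0.0371). All control arrays lay under 4.63, the 20th percentile of all values, so no fold is given for Adgrg2. The calls of Adgrg6 and Adgrg2 each ended without any 1 of 5 arrays (adjusted p up to 0.113 and 0.136), and held only without control replicate 1 (Adgrg6) or Sox17-GOF replicate 3 (Adgrg2). Schwann and glial markers had 0 of 5 measured genes past the threshold, though all 5 were above control on average. Their mean level was 5.69 to 5.86 in Sox17-GOF and 5.63 to 5.70 in control islets, and their part in the value of Adgrg6 was not tested. Adgrl4, the endothelial relative of the latrophilins, had a difference of -0.06 (adjusted p = 0.814) and is named outside the rule.

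Of 27 measured other synaptic adhesion genes, 2 were higher and 25 did not pass, with a median difference of 0.19 beside -0.01 over all genes. By the looser measure of no overlap between groups, 12 of the 27 were higher and 1 was lower, where 11.3% of all genes were higher and 14.2% lower. Lrrtm2, a leucine-rich repeat ligand of neurexins, measured 8.87, 9.37 and 8.82 in Sox17-GOF islets, against 7.84, 7.89 and 7.47 in control islets (2.45-fold, limma adjusted p = 0.00804). Lrrtm4, a relative that binds heparan sulfate proteoglycans, measured 7.47, 7.78 and 7.30 in Sox17-GOF islets, against 6.41, 6.08 and 6.26 in control islets (2.40-fold, limma adjusted p = 0.00399). In both genes Sox17-GOF replicate 2 was the highest array, and both calls held with any 1 array left out.

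Latrophilins signal through G proteins, and of 12 measured α subunits 1 was higher and 11 did not pass (median difference 0.01). Gnai1, an inhibitory subunit, measured 10.27, 9.70 and 10.06 in Sox17-GOF islets, against 9.19, 9.44 and 9.23 in control islets, a 1.65-fold difference (limma adjusted p = 0.0367) that passed without Sox17-GOF replicate 2 and ended without any other array (adjusted p up to 0.132). Of the other subunits of the inhibitory family, Gnai2, Gnai3 and Gnao1 had differences of -0.37, -0.32 and -0.32 without overlap between groups (adjusted p = 0.0647, 0.0549 and 0.0663), and Gnaz one of -0.28 with overlap (adjusted p = 0.32). None of these 4 passed, and they are named after their values were seen. Gna12, outside that family, was higher by 0.39 without overlap (limma adjusted p = 0.109). Over all 12 subunits, 4 were higher and 3 lower at an unadjusted limma p under 0.05.

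**Figure D5:**
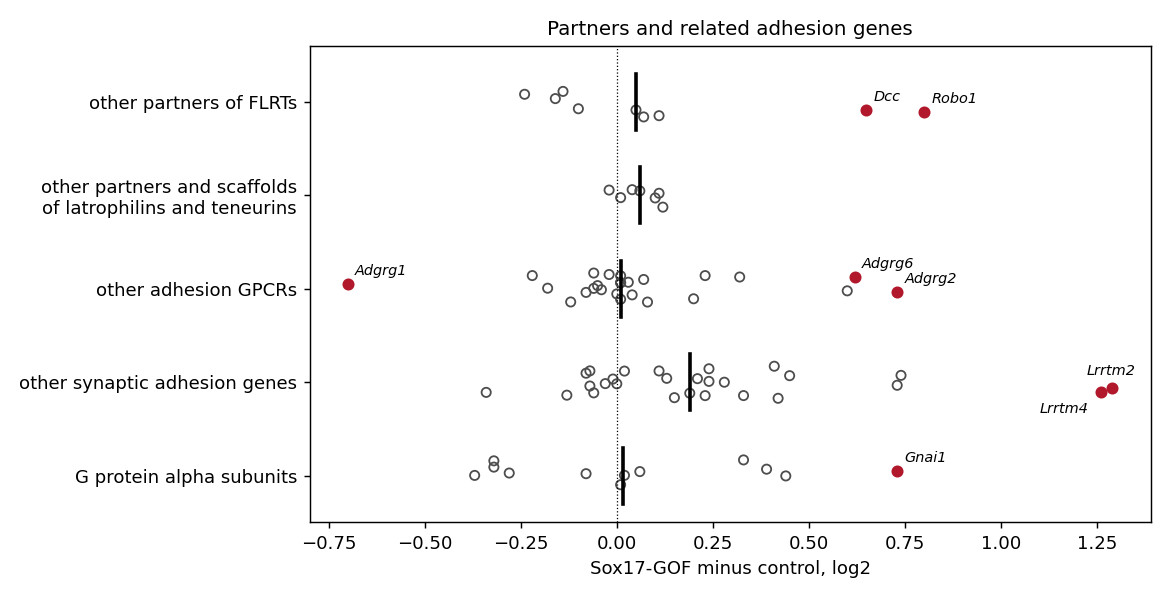
Difference in log2 expression, Sox17-GOF minus control, of the 80 measured genes of 5 lists (circles, spread vertically for legibility). Filled red circles passed the limma adjusted threshold and are named, and black bars are list medians. The 7 genes that were higher and the 1 that was lower, Adgrg1, stand out from medians that lie between 0.01 and 0.19.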

How the data were processed

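Islet RNA of 3 Sox17-GOF and 3 control samples was read on Affymetrix gene arrays. The authors deposited log2 expression values per probe set, normalized by RMA (background correction, quantile normalization and summary of the probes). GeneSpring is named for RMA in the methods and Affymetrix Expression Console in the submitters' notes. No further scaling was applied. The fit used lmFit and eBayes of limma 3.58.1 (R 4.3.3) without a trend, and Benjamini-Hochberg adjustment ran over the 22961 of 34760 probe sets that have a symbol, at a threshold of 0.05. The methods call the samples independent biological triplicates, and the number of arrays limits the precision. The procedure was checked on simulated arrays.
The members and lists were chosen with earlier results of these data known. Named are all 10 members, up to 4 called genes per list with the largest difference, and the 5 genes nearest to Adgrl3 and to the other member with the largest difference, among genes above the 20th percentile without a provisional symbol. Promoters are from RefSeq. The protein comparison that had been planned was not run, since protein sequences were not used here. Tried as alternatives were a trend on intensity, weights per array, centring on the median, quantile normalization, testing all probe sets or none of the dim ones, a block for the replicate number, the methods' t-test, a gene's other probe sets or their mean, and omission of each array.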

Additional observations from a re-analysis of the deposited data

How the results depend on the processing

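The direction of all 10 members was the same under every alternative that used the brightest probe set or averaged those of a gene, except Flrt3, whose difference ran from -0.02 (without control replicate 3) to 0.10 (without control replicate 1). Of the other probe sets of Adgrl2, 3 were below 0, at -0.12, -0.19 and -0.17. The difference of Adgrl3 ran from 1.58 to 1.67, a narrow range that follows from its choice for an even increase. Tenm1 has no value with dim probe sets left out, since its mean lies under 4.63, the 20th percentile of all values, and its difference and that of Flrt3 are limited by the low signal. Of the 9 other members, 2 were called, namely Adgrl2 and Flrt1. This became 1 with an intensity trend and with averaged probe sets (Flrt1 in each), 0 with all probe sets tested and 0 with the methods' t-test after Benjamini-Hochberg. It was 0 to 1 with an array left out. At the methods' own thresholds, 1.3-fold and an unadjusted p of 0.05, the methods' t-test counted Adgrl2 and Flrt1 among 1623 probe sets. Over all probe sets with a symbol, 1133 were called. The count was 558 with all probe sets tested and 385 to 1020 with an array left out. It was 71 by the methods' t-test after Benjamini-Hochberg, a step that the methods do not name for that test. After this added step Sox17 did not pass by the t-test (difference 0.67, adjusted p = 0.0906). The 8 called genes of the 5 lists became 4 with all probe sets tested and 4 to 7 with an array left out. By the t-test after the same added step they became 0. This count of list genes was chosen after seeing the data.
Same-numbered arrays of the groups did not deviate together (correlations of 0.054, -0.018 and -0.041 over 22961 probe sets). These values gave no sign of pairing by number, but with 3 arrays per group they cannot exclude it. With the replicate number as a block, 720 probe sets and 0 of the 9 members were called, and the difference of Sox17 was 0.67 (adjusted p = 0.0362).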
